A study of Bos taurus with 6 samples.

Results

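SOX and FOX proteins are transcription factors named for their DNA-binding domains, the HMG box and the forkhead domain, and their genes were followed here in 3 tissues of the bovine fetus. Members were the symbols of the count table made of SOX and a number, or of FOX, a class letter from A to S and a number. This gave 30 genes, 9 SOX and 21 FOX, among the 14179 symbols of the table. Poly(A) RNA of wild-type male Holstein fetuses at 90 days was sequenced from forebrain, liver and rumen, with 2 libraries per tissue. The rumen is the fermentation chamber of the ruminant stomach. Crown-rump lengths of 13 to 16 cm gave the age, and the fetuses were taken at a slaughterhouse. The labels report 2 male fetuses and do not tie a library to a fetus, and a p-value here speaks only of the spread between libraries, which may be technical. The labels name no treatment of the tissues. By its title, the study concerns the epigenetic basis of functions specific to the rumen.

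SOX proteins bind the minor groove of DNA and bend it, usually together with a partner factor, and members of 1 subgroup often stand in for each other. FOX proteins bind DNA through a winged helix. Those of class A can bind closed chromatin and prepare liver and gut genes for use, class O proteins are held out of the nucleus by insulin signalling, class P proteins act as repressing dimers, and FOXJ1 switches on the genes of motile cilia. In the embryo SOX2 keeps neural progenitors undifferentiated and also marks the foregut epithelium, SOXF factors act in endothelium, and SOX6 acts in red cell formation.

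The 6 libraries held from 10271024 to 18528958 counts. They are called Forebrain 1 and 2, Liver 1 and 2, and Rumen 1 and 2. Levels in CPM (counts scaled by the TMM-adjusted library size) are compared for 1 gene across tissues, not between genes, since CPM is not corrected for transcript length. Where a tissue had no counts, its floor was set at 3 counts over the pair of libraries, which is 0.115 CPM for forebrain, 0.103 CPM for liver and 0.116 CPM for rumen and covers counting error only. The tissue labels held in the defining markers. All 5 hepatocyte markers summed to between 178354 and 212607 CPM in liver and to at most 16.0 CPM elsewhere, the 5 markers of stratified epithelium to between 7799 and 9617 CPM in rumen, and the 5 neuronal markers to between 5367 and 5492 CPM in forebrain. Liver 1 and Liver 2 lay further apart than the other pairs, with an SD of 1.13 for the log2 ratio of the libraries (genes averaging 50 counts or more), against 0.38 in forebrain and in rumen. In bulk tissue, fewer cells of a type and less RNA per cell cannot be told apart.

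Of the 30 members, 24 had at least 1 count and 20 passed the filter on low counts. The other 6 had no counts in any library: FOXI1, FOXI2, FOXL2, FOXN1, FOXN4 and FOXR2. FOXE3, FOXH1, FOXP3 and SOX30 had too few counts to be tested, at most 21 in a library. By the quasi-likelihood test of edgeR, Benjamini-Hochberg adjusted over 11478 genes, 4 tested members were higher and 2 lower in rumen than in forebrain, where 41.8% of all tested genes passed, 20.3% higher and 21.5% lower. Rumen against liver gave 6 higher and 3 lower members beside 43.0% of all genes, 21.2% higher and 21.8% lower. Liver against forebrain gave 5 higher and 6 lower members beside 57.8%, 30.5% higher and 27.3% lower. The members' shares, 30%, 45% and 55%, lay near or below these backgrounds, so the family did not stand apart by how many of its genes differed. The median log2 fold change of the tested members was 0.71, 0.42 and 0.81 in these comparisons, against -0.01, -0.06 and 0.14 over all tested genes. These values were the same with genes at 0 in a tissue set to their bound. The bound left each such gene on the same side of the median, so the median could not change. Fits that left out 1 library were also run. Without a liver library more of all genes passed in each comparison, and without a forebrain or rumen library fewer passed. A member's call lost without a forebrain or rumen library is thus not shown to be a weakness of that gene alone.

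Each of the 13 members that passed did so in 2 of the 3 comparisons. Any 2 of the comparisons share 1 tissue, and the members are grouped here by that tissue. The share of all tested genes that passed in 2 comparisons was not counted, so this pattern is not shown to be particular to the family. SOX14 and FOXJ1 stood high in forebrain, FOXA3, FOXO3 and SOX6 high in liver, and SOX15 and FOXP4 high in rumen. SOX2, SOX4, FOXP2 and FOXS1 stood low in liver, and FOXA1 and FOXP1 low in forebrain. The comparisons share libraries, so their counts are not independent of each other. The other 7 tested members, FOXC2, FOXJ2, FOXN3, FOXO4, SOX5, SOX17 and SOX18, passed in none. By a stricter rule, enriched in a tissue where both of its comparisons passed and reached 2 or more on the log2 scale, 6 of the 20 tested members were enriched somewhere, beside 23.0% of all tested genes. These were 1 in rumen (SOX15; 4.26% of all genes), 2 in forebrain (SOX14 and FOXJ1; 9.07%) and 3 in liver (SOX6, FOXA3 and FOXO3; 9.71%). Depleted by the mirrored rule were 1 member in forebrain (FOXA1; 6.18% of all genes), 3 in liver (SOX2, FOXP2 and FOXS1; 6.22%) and 0 in rumen (1.66%).

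**Figure D1:**
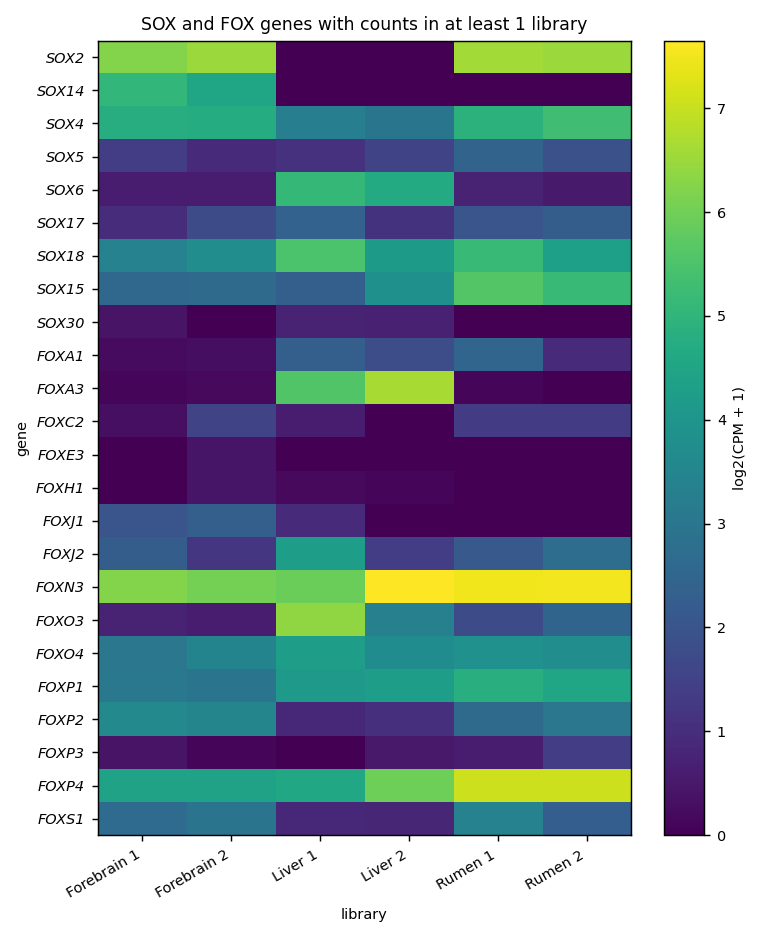
Level of each SOX and FOX gene with counts, as log2(CPM + 1) by colour, with 1 row per gene and 1 column per library. SOX2 is bright in both forebrain and both rumen libraries and dark in liver, where it had no counts, whereas FOXA3 and SOX6 are bright only in the 2 liver columns.

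SOX2, a SOXB factor, separated liver from the other tissues. It is the factor of neural stem cells and of the foregut lining. SOX2 stood at 74.0 CPM in Forebrain 1, 90.1 in Forebrain 2, 94.4 in Rumen 1 and 89.7 in Rumen 2, and had no counts in either liver library. Rumen and forebrain thus overlapped, and both lay far above liver. The pooled level was at least 890-fold higher in rumen than the liver floor (adjusted p = 8.26e-05) and at least 798-fold lower in liver than in forebrain (adjusted p = 4.09e-05). Rumen against forebrain gave a log2 fold change of 0.17 ± 0.24 (SE; adjusted p = 0.617). In the RefSeq gene table the lncRNA LOC100849009 overlaps SOX2, and reads of the pair cannot be told apart where strand is not known. The same limit holds for all 10 members that another gene overlaps there: SOX2, SOX5, SOX6, SOX14, FOXN3, FOXP1, FOXP2, FOXP3, FOXP4 and FOXS1.

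SOX2 shared its forebrain level with neural genes and its rumen level with others. Of 10 tested neural partner genes, 9 were lower in liver than in forebrain and 0 higher (1 higher without Liver 1), and 7 were lower and 1 higher in rumen than in forebrain. The higher one was the intermediate filament gene NES, whose call was lost when any forebrain or rumen library was left out. OTX2, LHX2 and NES had the highest forebrain levels of that list, at 142, 69.4 and 77.4 CPM on average. The 3 radial glia markers FABP7, SLC1A3 and HES5 summed to 938 CPM or more in both forebrain libraries, at most 51.0 CPM in rumen and at most 5.72 CPM in liver. The rumen libraries thus held SOX2 at the forebrain level with these markers far lower. Stratified epithelium markers were at most 7.81 CPM in forebrain, with KRT15, TP63 and IVL at 0. Among 7 tested genes of enteric neurons and glia, which SOX2 also marks, 5 were higher in rumen than in liver and 0 lower (1 lower without Liver 2): PHOX2A, RET, S100B, ELAVL4 and GFRA1. Enteric markers summed to 95.8 CPM in Rumen 2 and 101 CPM in Rumen 1, to at most 5.20 CPM in liver, and to 421 and 690 CPM in Forebrain 1 and 2. The part of each of these cell types in the SOX2 level was not tested.

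SOX14, a SOXB factor of interneurons in the diencephalon and midbrain, was a forebrain gene in these libraries. It had 32.5 CPM in Forebrain 1 and 21.4 CPM in Forebrain 2, and no counts in the 4 other libraries. Its pooled level was at least 230-fold lower in rumen (adjusted p = 0.00202) and at least 258-fold lower in liver (adjusted p = 0.00115). The inhibitory neuron gene GAD1, at 367 CPM on average in forebrain, was likewise without counts in liver and rumen. Pituitary and eye markers, from neighbours of the forebrain, summed to 71.6 and 81.5 CPM in Forebrain 1 and 2 and to 82.2 and 58.4 CPM in Rumen 1 and 2, with POMC at 48.1 CPM on average in forebrain, and their part in the SOX14 level was not tested. LOC107132214, a protein-coding gene of the RefSeq table, overlaps SOX14 and was not analysed here.

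SOX4, a SOXC factor of progenitors and young neurons that also acts in early lymphocytes, was low in liver. Its level was 26.4 and 25.6 CPM in Forebrain 1 and 2, 29.5 and 38.8 CPM in Rumen 1 and 2, and 8.56 and 6.87 CPM in Liver 1 and 2. Both liver libraries lay below the 4 others. Rumen exceeded liver 4.43-fold (log2 fold change 2.15 ± 0.31 (SE); adjusted p = 0.00212), and liver lay 3.38-fold below forebrain (adjusted p = 0.00331). Rumen against forebrain did not pass, at a log2 fold change of 0.39 ± 0.29 (SE; adjusted p = 0.319). SOX2, SOX14 and SOX4 kept all of their calls under every alternative setting and without any 1 library.

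Of the SOXD pair, SOX6 was high in liver and SOX5 passed in no comparison. The proteins lack an activation domain of their own, and SOX6 silences embryonic globin genes in red cell precursors. SOX6 stood at 33.2 CPM in Liver 1 and 24.8 CPM in Liver 2, against 0.488 and 0.505 CPM in Forebrain 1 and 2 and 0.689 and 0.468 CPM in Rumen 1 and 2. The liver libraries did not overlap the others. SOX6 was 57.2-fold higher in liver than in forebrain (log2 fold change 5.84 ± 0.50 (SE); adjusted p = 9.32e-05) and 49.2-fold lower in rumen than in liver (adjusted p = 0.000192), and kept both calls in every setting run. SOX5 stood at 1.63 and 0.938 CPM in Forebrain 1 and 2, 1.12 and 1.99 CPM in Liver 1 and 2, and 4.36 and 2.73 CPM in Rumen 1 and 2. The rumen libraries were the upper ones, but no comparison passed in the main fit (lowest adjusted p = 0.101, rumen against forebrain). In the edgeR fit of 2 tissues alone, rumen against forebrain passed at adjusted p = 0.0341. Without Liver 1 or Liver 2 rumen against forebrain passed for SOX5, at adjusted p = 0.0455 and 0.0450.

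Red cell genes moved with SOX6. All 8 tested erythroid genes were higher in liver than in forebrain and lower in rumen than in liver, with or without any 1 library. The 5 erythroid markers summed to 6436 CPM in Liver 1 and 4717 CPM in Liver 2, and to at most 8.95 CPM in any other library, with GATA1 and EPB42 at 0 in rumen. Their part in the SOX6 level was not tested. C15H11orf58 overlaps SOX6 in the RefSeq table and was abundant in all tissues, from 92.2 CPM in Rumen 2 to 246 CPM in Forebrain 1. The part of reads shared by this pair in the SOX6 level was not tested. Of the cartilage genes that SOX5 and SOX6 activate with SOX9, 4 could be tested, and 2 of them, COL11A1 and HAPLN1, were higher in rumen than in liver and 0 lower (1 lower without Liver 2). Liver against forebrain gave 1 higher, COL11A2, and 2 lower, COL11A1 and HAPLN1. Rumen against forebrain gave 1 higher, COL11A2, and 0 lower. Both COL11A2 calls were lost without some single libraries. COL2A1, the main cartilage collagen, averaged 22.4 CPM in rumen against 10.5 CPM in forebrain and 7.79 CPM in liver, and the cartilage markers summed to at most 27.7 CPM in any library. In the oligodendrocyte lineage, whose timing SOX5 and SOX6 control, 4 of 6 tested genes were lower in liver than in forebrain and 0 higher: OLIG1, NKX2-2, BCAS1 and PDGFRA. Rumen against forebrain gave 4 lower, OLIG1, NKX2-2, MBP and BCAS1, and 1 higher, CSPG4. Rumen against liver gave 2 higher, CSPG4 and PDGFRA, and 2 lower, MBP and BCAS1. These rumen counts changed without some single libraries.

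The SOXF factors SOX17 and SOX18 act in endothelium, and SOX17 also in endoderm and haematopoietic stem cells of fetal liver. SOX18 stood at 9.59 and 12.5 CPM in Forebrain 1 and 2, 43.6 and 16.9 CPM in Liver 1 and 2, and 34.3 and 19.0 CPM in Rumen 1 and 2. Both forebrain libraries lay below the other 4, while liver and rumen overlapped. No comparison passed with all 6 libraries, the nearest being liver against forebrain at a log2 fold change of 1.44 ± 0.54 (SE; adjusted p = 0.0545), which DESeq2 called at adjusted p = 0.0390. Without Liver 2 that comparison passed at adjusted p = 0.000103, and rumen against forebrain passed without Liver 1 or Liver 2 at 0.00238 and 0.00191. In the edgeR fit of 2 tissues alone, rumen against forebrain also passed for SOX18, at adjusted p = 0.00141. SOX17 was low throughout, from 0.976 CPM in Forebrain 1 to 4.32 CPM in Liver 1, and its tissues overlapped (lowest adjusted p = 0.339).

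Endothelial genes showed the same split of the liver pair. The 6 endothelium markers summed to 420 CPM in Liver 1 and 229 CPM in Liver 2, 178 and 241 CPM in Forebrain 1 and 2, and 257 and 223 CPM in Rumen 1 and 2, and none was at 0 in a tissue. Of 11 tested endothelial genes, 6 were higher in liver than in forebrain and 0 lower (1 lower without Liver 1), among them VWF, KDR and TEK at 334, 126 and 90.4 CPM in liver. Rumen against forebrain gave 5 higher and 0 lower, but 0 higher when Forebrain 1, Forebrain 2 or Rumen 1 was left out, and 2 without Rumen 2. A count of 1 was lower there without Liver 1 or Liver 2. Rumen against liver gave 1 higher, EMCN, and 3 lower, TEK, TIE1 and VWF, and both counts changed without some single libraries. What part endothelial content had in the SOX18 level was not tested.

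SOX15, the only SOXG factor, was the one member enriched in rumen. It is known from skeletal muscle precursors and from placental giant cells. The libraries gave 47.4 CPM in Rumen 1 and 34.3 CPM in Rumen 2, against 4.96 and 5.20 CPM in Forebrain 1 and 2 and 4.02 and 13.2 CPM in Liver 1 and 2. Both rumen libraries lay above all others. The difference was 8.04-fold against forebrain (log2 fold change 3.01 ± 0.56 (SE); adjusted p = 0.00592) and 4.68-fold against liver (log2 fold change 2.23 ± 0.52 (SE); adjusted p = 0.0144). The liver comparison had a log2 fold change of 1.63 without Liver 1 and 3.34 without Liver 2. Both calls were lost in some fits without 1 library, and fewer of all genes passed in those fits too. The losses are thus not shown to be particular to SOX15. The forebrain comparison lost its call without Forebrain 1, Forebrain 2 or Rumen 1, at log2 fold changes of 2.996, 3.07 and 2.75. The liver comparison lost its call without Rumen 1 or Rumen 2, at log2 fold changes of 1.98 and 2.47.

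Epithelial genes of the foregut were high in the same libraries as SOX15. Of 9 tested, 7 were higher in rumen than in liver and 0 lower, and 8 were higher and 1 lower in rumen than in forebrain. The keratin KRT15, the factor KLF5 and the homeobox gene PITX1 led in rumen at 7065, 1065 and 426 CPM on average. The lower gene was NKX2-1, a factor of ventral forebrain and lung, whose call was lost in limma voom and without Forebrain 2, Rumen 1 or Rumen 2. Stratified epithelium markers summed to 85.5 CPM in Liver 1 and 178 CPM in Liver 2, nearly all of it PERP at 129 CPM on average, with TP63 and IVL at 0 there. The part of epithelium in the SOX15 level was not tested. SOX30, a SOXH factor of male germ cells, had 4 and 0 counts in Forebrain 1 and 2, 9 and 10 counts in Liver 1 and 2, and none in rumen, and was not tested.

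**Figure D2:**
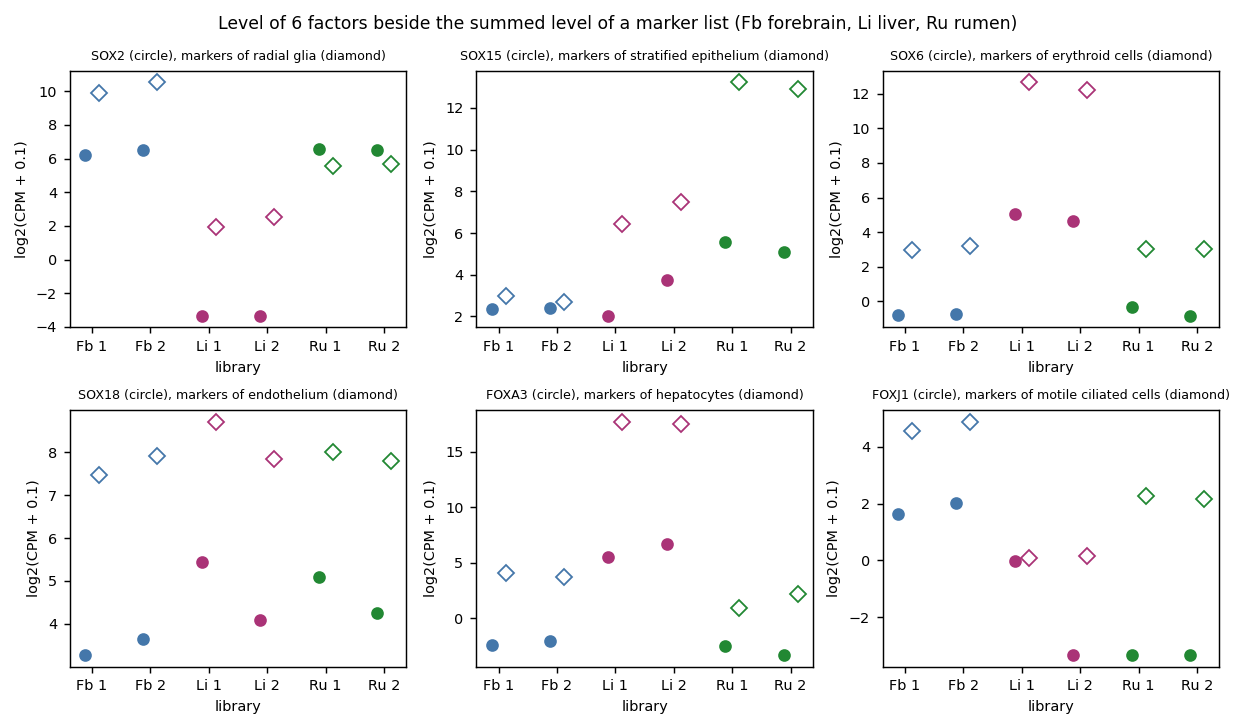
Level of 6 factors (circles) and summed level of a marker list (open diamonds), both as log2(CPM + 0.1), with the 6 libraries along the x axis and colour by tissue. SOX6 and FOXA3 are high only in liver, as are the erythroid and hepatocyte markers, whereas SOX2 is as high in rumen as in forebrain while the radial glia markers are lower in rumen.

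FOXA factors open liver and gut genes, and the 2 class A genes of the table differed. FOXA3 stood at 46.2 CPM in Liver 1 and 99.2 CPM in Liver 2, with 1 and 2 counts in Forebrain 1 and 2, and 1 and 0 counts in Rumen 1 and 2. It was a liver gene in these libraries. The pooled level was 651-fold higher in liver than in forebrain, with a 95% counting interval of 222 to 3158 (adjusted p = 4.12e-05), and 1932-fold lower in rumen than in liver, with an interval of 346 to 76351 (adjusted p = 8.28e-05). Both calls held in every setting run, and the liver pair differed 2.15-fold. FOXA1 stood at 4.02 and 2.50 CPM in Liver 1 and 2, 4.59 and 0.936 CPM in Rumen 1 and 2, and 0.163 and 0.217 CPM in Forebrain 1 and 2. Liver and rumen overlapped, and both lay above forebrain. It was 16.2-fold higher in liver than in forebrain (log2 fold change 4.02 ± 1.08 (SE); adjusted p = 0.0130) and 13.9-fold higher in rumen than in forebrain (log2 fold change 3.80 ± 1.12 (SE); adjusted p = 0.0262).

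The FOXA1 calls rested on few counts. The liver comparison lost its call without Forebrain 1 or Forebrain 2 (adjusted p = 0.138 and 0.140). The rumen comparison lost it without Forebrain 1, Forebrain 2 or Rumen 1 (adjusted p = 0.213, 0.209 and 0.207), with a log2 fold change of 2.24 without Rumen 1 and 4.55 without Rumen 2, and in limma voom (adjusted p = 0.0572). Hepatocyte genes formed the liver side of this class. Of the hepatocyte factors, all 10 tested were higher in liver than in forebrain, and 9 were lower in rumen than in liver (5 without Rumen 1). HNF4A, HHEX and CEBPB led in liver at 218, 61.4 and 46.1 CPM on average. All 10 tested targets of FOXA in liver were higher there than in forebrain and lower in rumen than in liver, led by SERPINA1, ALB and AFP. Hepatocyte markers summed to at most 4.37 CPM in rumen, where FOXA1 reached 4.59 CPM in Rumen 1. In the hedgehog pathway, a known partner pathway of FOXA in gut and neural tube, 6 of 10 tested genes were higher in rumen than in forebrain and 0 lower, with 3 higher without Forebrain 2 or Rumen 2. Liver against forebrain gave 5 higher, IHH, SMO, HHIP, SUFU and BMP4 (3 without Forebrain 1 or Forebrain 2), and 1 lower, BOC (2 without Liver 1). Rumen against liver gave 4 higher, SMO, GLI1, CDON and BOC (2 without Rumen 1 or Rumen 2), and 2 lower, IHH and HHIP (1 without Rumen 1 or Rumen 2, in DESeq2 and in limma voom). The receptor SMO, BMP4 and the coreceptor BOC led in rumen at 80.8, 62.9 and 59.7 CPM on average.

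FOXJ1, which drives motile cilia, was found mainly in forebrain. It had 37 and 55 counts in Forebrain 1 and 2, 12 and 0 counts in Liver 1 and 2, and none in rumen, that is 3.01 and 3.97 CPM in forebrain and 0.893 CPM in Liver 1. Forebrain lay above all other libraries. The pooled level was at least 30.3-fold lower in rumen than in forebrain (adjusted p = 0.0197), and liver was 8.25-fold lower than forebrain (adjusted p = 0.0397). Neither call held in every setting. Fewer of all genes also passed without a forebrain or rumen library, so losses in those fits are not shown to be particular to FOXJ1. The rumen comparison was lost without either Forebrain or either Rumen library (adjusted p from 0.0818 to 0.109). The liver comparison, whose log2 fold change of -3.04 ± 1.00 (SE) was -1.97 without Liver 2 and -4.39 in limma voom, both called, also passed without Liver 1 (adjusted p = 0.00194), which leaves liver with no counts. It was lost without either Forebrain library (adjusted p = 0.118 and 0.183) or either Rumen library (0.0595 and 0.0603). DESeq2 (adjusted p = 0.203), the fit of 2 tissues alone (0.0542), the replicate block (0.0548) and edgeR's legacy dispersion (0.146) did not call it either.

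Cilia genes followed FOXJ1 in part. Of 7 tested motile cilia genes, 6 were lower in liver than in forebrain and 0 higher (1 higher without Liver 1). In rumen 5 were lower than in forebrain and 0 higher, with 2 and 1 lower without Forebrain 1 and 2, 1 without either Rumen library, 3 in limma voom and 2 by the legacy dispersion. TPPP3, CCDC39 and TEKT2 led in forebrain at 48.2, 11.2 and 10.7 CPM on average. The ciliated cell markers summed to 23.5 and 29.4 CPM in Forebrain 1 and 2, against at most 1.03 CPM in liver and 4.74 CPM in rumen, and TEKT1 and SPAG6 were at 0 in both liver and rumen. TTR, the leading gene of choroid plexus, a ciliated brain tissue, averaged 1.69 CPM in forebrain, and the 4 choroid plexus markers in the table summed to at most 3.25 CPM there. Their part in the FOXJ1 level was not tested. FOXJ2, a broadly used relative that is not tied to cilia, stood at 3.82 and 1.30 CPM in Forebrain 1 and 2, 18.5 and 1.61 CPM in Liver 1 and 2, and 3.37 and 5.62 CPM in Rumen 1 and 2. No comparison passed for FOXJ2 with all 6 libraries, and its tissues overlapped. Without Liver 2, liver exceeded forebrain (adjusted p = 0.000125) and rumen lay below liver (adjusted p = 0.00116).

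FOXO factors act downstream of insulin signalling and guard red cell precursors and stem cells from oxidative stress. FOXO3 stood at 82.7 CPM in Liver 1 and 9.06 CPM in Liver 2, 2.37 and 4.53 CPM in Rumen 1 and 2, and 0.651 and 0.505 CPM in Forebrain 1 and 2. Both liver libraries lay above the others, but they differed 9.10-fold between themselves. FOXO3 was 78.3-fold higher in liver than in forebrain (log2 fold change 6.29 ± 1.32 (SE); adjusted p = 0.00597) and 13.2-fold lower in rumen than in liver (log2 fold change -3.73 ± 1.02 (SE); adjusted p = 0.0241). Without Liver 1 these log2 fold changes were 3.96 and -1.39, and without Liver 2 they were 7.14 and -4.58, all 4 still called.

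The FOXO3 calls were lost in other settings. Liver against forebrain did not pass without Forebrain 1 or Forebrain 2 (adjusted p = 0.0548 and 0.0608) or in limma voom (0.0814). Rumen against liver did not pass without Forebrain 1, Forebrain 2, Rumen 1 or Rumen 2 (adjusted p = 0.0593, 0.0586, 0.153 and 0.111), in the fit of 2 tissues (0.0556) or in limma voom (0.196). Rumen against forebrain, at a log2 fold change of 2.57 ± 1.64 (SE; adjusted p = 0.251), passed in DESeq2 (adjusted p = 0.0326), in the fit of 2 tissues (0.00465) and without Liver 1 or Liver 2 (0.00736 and 0.00316). FOXO4, the X-linked relative, had its lowest levels in the forebrain pair, at 7.24 and 9.89 CPM in Forebrain 1 and 2. It stood at 18.7 and 12.3 CPM in Liver 1 and 2, and 13.5 and 12.5 CPM in Rumen 1 and 2. Its nearest comparison was liver against forebrain, at a log2 fold change of 0.84 ± 0.38 (SE; adjusted p = 0.0962), which passed without Liver 2 (0.00756).

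FOXO targets and insulin signalling genes passed in both directions. Of 10 tested, 5 were higher in liver than in forebrain and 0 lower, namely IGFBP1, PCK1, GADD45A, TXNIP and AKT2, with 3 higher without either Forebrain library and 2 lower without Liver 2. Rumen against liver gave 3 higher, SESN1, BCL6 and TXNIP, and 3 lower, IGFBP1, PCK1 and GADD45A, with more lower without Liver 2. Over all tested genes, 21.2% were higher and 21.8% lower there. Rumen against forebrain gave 3 higher, BCL6, GADD45A and TXNIP, and 0 lower, beside 20.3% and 21.5% of all genes. These counts against forebrain changed in some other settings and without some single libraries. TXNIP, a redox protein that FOXO and glucose signals control, averaged 1144 CPM in rumen against 120 CPM in liver and 64.3 CPM in forebrain. SESN1, BCL6 and TXNIP thus stood higher in rumen than in liver, where FOXO3 was the higher one in liver. Cell cycle genes driven by FOXM1, whose action FOXO proteins oppose, stood highest in liver. All 11 tested were higher in liver than in forebrain and lower in rumen than in liver, with 6 and 5 lower without Rumen 1 and 2. CENPF, CDC25B and BIRC5 led in liver at 590, 258 and 215 CPM on average. The erythroid genes, with the fetal haemoglobin HBG included, summed to 118725 CPM in Liver 1 and 42846 CPM in Liver 2, and the part of red cell precursors in the FOXO3 level was not tested.

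Class P held 4 genes, of which FOXP1, FOXP2 and FOXP4 passed in some comparison. FOXP1 and FOXP4 shape foregut epithelium and smooth muscle in lung and oesophagus, FOXP2 acts in brain circuits and lung, and FOXP3 defines regulatory T cells. FOXP4 stood at 132 and 134 CPM in Rumen 1 and 2, 22.3 and 60.8 CPM in Liver 1 and 2, and 20.0 and 20.1 CPM in Forebrain 1 and 2. Both rumen libraries lay above the rest. Rumen exceeded forebrain 6.61-fold (log2 fold change 2.72 ± 0.46 (SE); adjusted p = 0.00387), a call kept in every setting, and it exceeded liver by a log2 fold change of 1.67 ± 0.43 (SE; adjusted p = 0.0207). The liver comparison lost its call without Forebrain 1, Rumen 1 or Rumen 2 (adjusted p = 0.0501, 0.0987 and 0.0998) and in the fit of 2 tissues (0.0524), and its log2 fold change was 2.57 without Liver 2.

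FOXP1 separated forebrain from the other tissues. Its level was 7.40 and 6.64 CPM in Forebrain 1 and 2, 16.5 and 18.1 CPM in Liver 1 and 2, and 26.9 and 21.9 CPM in Rumen 1 and 2. The 3 tissues did not overlap. Rumen was 3.48-fold above forebrain (log2 fold change 1.80 ± 0.32 (SE); adjusted p = 0.00506) and liver 2.47-fold (log2 fold change 1.30 ± 0.32 (SE); adjusted p = 0.0128). The first call was lost without Forebrain 1, Forebrain 2 or Rumen 1, at log2 fold changes of 1.90, 1.75 and 1.64. The second was lost without Forebrain 1 or Forebrain 2, at log2 fold changes of 1.38 and 1.23. Fewer of all genes passed in these fits too. Rumen against liver did not pass, at a log2 fold change of 0.50 ± 0.30 (SE; adjusted p = 0.222).

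FOXP2 had another order. It stood at 11.1 and 10.2 CPM in Forebrain 1 and 2, 5.28 and 7.26 CPM in Rumen 1 and 2, and 0.819 and 1.09 CPM in Liver 1 and 2. The tissues did not overlap, with liver lowest. Liver was 10.9-fold below forebrain (log2 fold change -3.45 ± 0.50 (SE); adjusted p = 0.00134) and rumen 6.45-fold above liver (log2 fold change 2.69 ± 0.53 (SE); adjusted p = 0.00718), both in every setting run. Rumen against forebrain did not pass, at -0.76 ± 0.39 (SE; adjusted p = 0.162). FOXP3 had 4 and 1 counts in Forebrain 1 and 2, 0 and 7 counts in Liver 1 and 2, and 7 and 21 counts in Rumen 1 and 2, and was not tested in the main fit. In the RefSeq table CCDC22 and PPP1R3F overlap FOXP3, and CCDC22 had 181 to 562 counts per library. Alveolar lung cells, where FOXP2 is also known, were looked for by 5 markers. These summed to 141 and 187 CPM in Forebrain 1 and 2, 35.9 and 158 CPM in Liver 1 and 2, and at most 13.6 CPM in rumen, most of it the lipid transporter ABCA3, with SFTPB at 0 in forebrain and SFTPC at 10.5 and 13.5 CPM in Forebrain 1 and 2. Their part in the FOXP2 level was not tested. Lymphocyte genes were scarce in these tissues: the 5 markers summed to at most 2.89 CPM in forebrain and 1.25 CPM in rumen, with CD3G at 0 in rumen, and to 14.1 and 22.3 CPM in liver. Only 2 listed lymphocyte genes could be tested, CD8A and PTPRC, and both were higher in liver than in forebrain, with 1 in DESeq2, limma voom, the legacy dispersion and without either Forebrain library. Without Liver 2, when more genes passed the filter, 6 were higher.

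Genes of visceral mesenchyme and smooth muscle, tissues where FOXP1 and FOXP4 are known, rose with FOXP4. Of 13 tested, 13 were higher in rumen than in forebrain and 12 higher than in liver, with 0 lower in either and with or without any 1 library. COL3A1, COL1A1 and ACTA2 led in rumen at 8573, 2879 and 1877 CPM on average. The smooth muscle markers summed to 5896 and 5864 CPM in Rumen 1 and 2 and to at most 82.9 CPM elsewhere. Fibroblast markers summed to 12916 and 13600.2 CPM in Rumen 1 and 2, at most 96.6 CPM in forebrain and 843 CPM in Liver 1. Mesothelium markers, from the outer lining of the gut, summed to 51.3 and 56.9 CPM in rumen and reached 223 CPM in Liver 2. The part of these cells in the levels of FOXP4 and FOXP1 was not tested.

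FOXS1, a gene of pericytes and of sensory neurons from the neural crest, was low in liver. It stood at 5.37 and 6.64 CPM in Forebrain 1 and 2, 9.56 and 3.90 CPM in Rumen 1 and 2, and 0.819 and 0.771 CPM in Liver 1 and 2. Liver lay below both other tissues, which overlapped. Liver was 7.51-fold below forebrain (log2 fold change -2.91 ± 0.70 (SE); adjusted p = 0.0113), a call lost without Forebrain 2 (0.0725). Rumen was 8.42-fold above liver (log2 fold change 3.07 ± 0.70 (SE); adjusted p = 0.0122), a call lost without Rumen 1, when the log2 fold change was 2.28 (0.0764). The rumen pair differed 2.44-fold, and 0.881% of genes with a mean rumen count of at least 50 differed as much. LOC618409 overlaps FOXS1 in the RefSeq table and was not analysed here. FOXC2, a factor of lymphatic vessels and mesenchyme, had 3 and 27 counts in Forebrain 1 and 2, 7 and 0 counts in Liver 1 and 2, and 20 in each rumen library. No comparison passed for FOXC2 (lowest adjusted p = 0.143, rumen against liver), but rumen against liver passed without Liver 1 (0.0337).

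FOXN3, a checkpoint repressor with a role in liver glucose handling, was among the members with the most counts in every tissue. Its level was 74.5 and 65.0 CPM in Forebrain 1 and 2, 60.1 and 200 CPM in Liver 1 and 2, and 179 and 183 CPM in Rumen 1 and 2. Rumen lay above forebrain without overlap, and liver spanned both. Rumen against forebrain gave a log2 fold change of 1.38 ± 0.50 (SE; adjusted p = 0.0666). That comparison passed in DESeq2 (adjusted p = 0.0414), in the fit of 2 tissues (5.44e-07) and without Liver 1 or Liver 2 (2.03e-06 and 1.72e-06). The place of liver rested on which of its libraries was kept. Without Liver 1, liver exceeded forebrain by a log2 fold change of 1.52 (adjusted p = 2.37e-06), and without Liver 2, rumen exceeded liver by 1.59 (adjusted p = 6.58e-06). FOXE3, a lens factor, had 5 counts, all in Forebrain 2. FOXH1, a partner of SMAD proteins in the early embryo, had 5 counts in Forebrain 2, 2 and 1 in Liver 1 and 2, and none elsewhere.

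**Figure D3:**
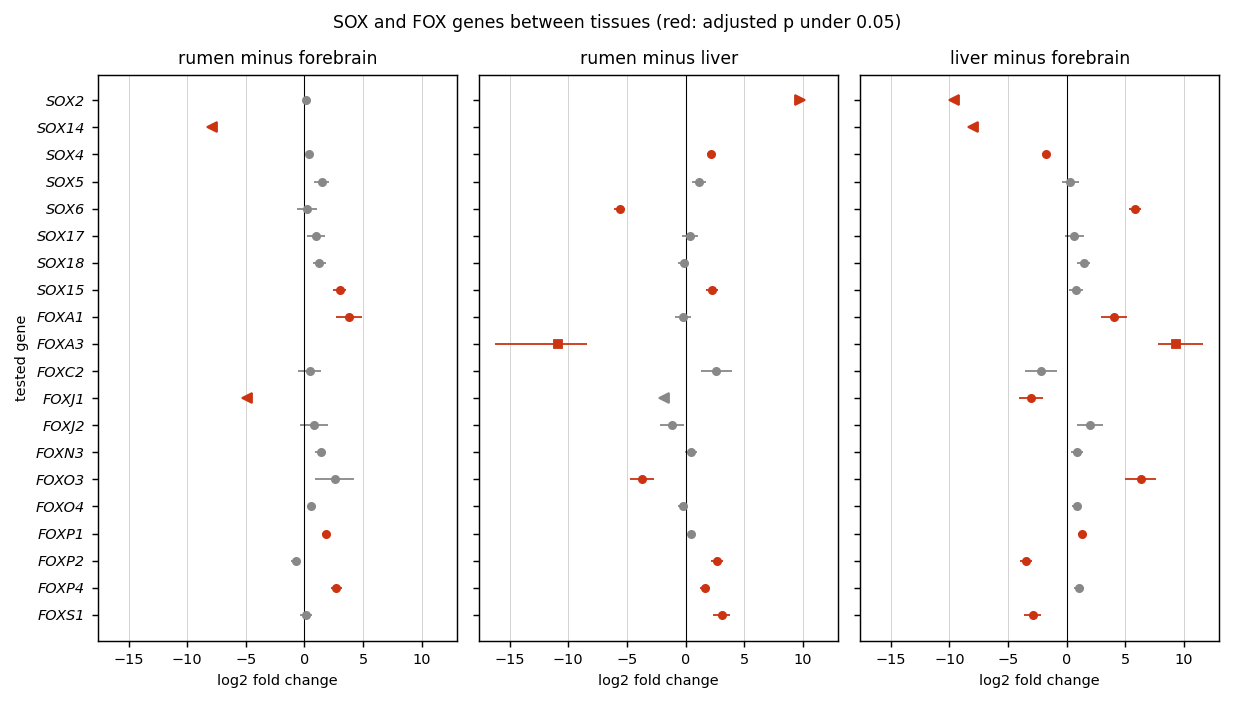
Log2 fold change of each tested SOX and FOX gene in the 3 comparisons, in red where the adjusted p was under 0.05. Circles are fitted values with their SE, triangles are bounds where a tissue had no counts, squares are pooled ratios with a 95% counting interval, and no point is drawn where both tissues had at most 3 counts. SOX14 lies far left of 0 in both panels against forebrain, and FOXA3 and SOX6 lie to the left in rumen minus liver and to the right in liver minus forebrain.

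Several members differed between the 2 liver libraries. Of 11 members with a mean liver count of at least 50, FOXJ2 was 11.3-fold and FOXO3 9.10-fold higher in Liver 1 than in Liver 2. A ratio of at least that size was found in 0.938% and 1.63% of 9062 genes at that depth. FOXN3, SOX15, FOXP4 and FOXA3 were higher in Liver 2, by 3.32-fold, 3.27-fold, 2.72-fold and 2.15-fold, and SOX18 was 2.58-fold higher in Liver 1. At least 4-fold apart were 2 of these 11 members, beside 8.14% of all genes compared. In forebrain and in rumen, 0 of 11 members differed by that much, beside 0.231% and 0.0458% of genes. FOXP1, SOX4 and SOX6 were close in liver, at ratios of 1.10, 1.25 and 1.34. Macrophage markers summed to 675 CPM in Liver 1 and 306 CPM in Liver 2, and hepatocyte markers to 212607 and 178354 CPM. The part of cell content in these differences was not tested.

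**Figure D4:**
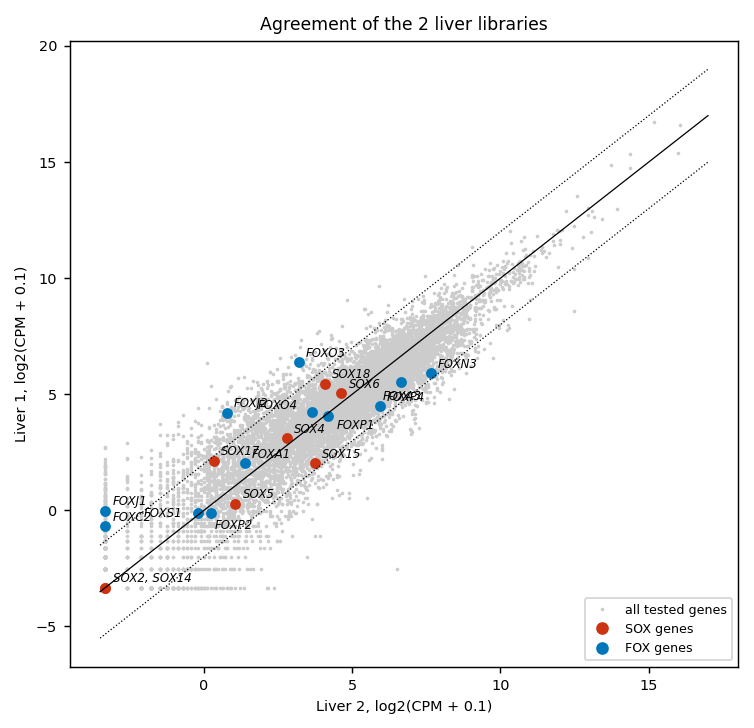
Level in Liver 1 against Liver 2, both as log2(CPM + 0.1), for all tested genes (grey) and for SOX (red) and FOX (blue) genes. The solid line marks equal levels and the dotted lines a 4-fold difference. FOXJ2 and FOXO3 lie above the upper dotted line, as do the low-count genes FOXJ1 and FOXC2, while FOXP1, SOX4 and SOX6 lie near the solid line.

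Counts of the family as a whole made up 0.0600% of all counts in Rumen 1 and 0.0607% in Rumen 2, against 0.0341% in Forebrain 1, 0.0322% in Forebrain 2, 0.0298% in Liver 1 and 0.0396% in Liver 2. Rumen had the largest share in these libraries. The totals were not TMM-adjusted. The TMM factors were 0.812 and 0.840 in Liver 1 and 2, and 1.20 and 1.13 in Forebrain 1 and 2. Liver and forebrain are thus not ordered by these shares. A few genes filled the rumen share. FOXN3, FOXP4 and SOX2 gave 30.3%, 22.2% and 15.9% of the member counts in Rumen 1, and 32.3%, 23.7% and 15.9% in Rumen 2. In forebrain SOX2 and FOXN3 led, with 26.0% and 26.2% in Forebrain 1 and 31.5% and 22.7% in Forebrain 2. In liver the leaders were not shared: FOXO3 led Liver 1 with 22.5%, and FOXN3 led Liver 2 with 42.4%, followed by FOXA3 with 21.1%. These shares weigh long transcripts more and do not rank the genes by number of transcripts.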

How the data were processed

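The members and gene lists were chosen with earlier results of these data known. The 15 lists of partner and target genes and 17 lists of cell type markers were written from general knowledge. The values deposited by the authors are unscaled read counts, 1 row per symbol and 1 column per library, and no column of sample values was unused (0). HISAT2 2.0.5, featureCounts 1.5.0-p3 and edgeR 3.18.1 are named in the submitters' processing notes. The build and annotation were not given in the sources used here, nor was the strand setting. The library kit was NEBNext Ultra, per the labels' protocols. All 30 member symbols matched the RefSeq table (ARS-UCD2.0), used only for names and overlaps, and 1 SOX symbol and 1 listed gene, taken out of its lists, are not reported here.

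Counts were fitted with edgeR 4.0.16 in R 4.3.3 (quasi-likelihood test, TMM, filterByExpr, 1 mean per tissue, 3 residual degrees of freedom), with adjustment over 11478 genes and a threshold of 0.05. Log2 fold changes carry edgeR's prior count, and the SE was taken from the F statistic. For a tissue without counts the fold is a bound, taken against 3 counts over its pair of libraries, and for 1 to 3 counts a ratio with an exact 95% counting interval. Values per library are given for members enriched or depleted in a tissue, for members with a mean of at least 20 CPM, and for subfamily relatives. From the lists, the 3 genes with the highest mean in the tissue described are named, and any gene that a count of 5 or fewer rests on. Other genes were named after their values were seen. DESeq2 1.42.0, limma 3.58.1, other filters, scalings and fits, and leaving out each library were tried. The scripts were tested on simulated data.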

Additional observations from a re-analysis of the deposited data

How the results depend on the processing

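Of 26 calls of members over the 3 comparisons, 13 held in every setting, 8 were lost only without 1 library, and 5 in some other setting too. No called fold change turned its sign. With 2 tissues in the fit, 8 members were higher in rumen than in forebrain, in place of 4. Of all genes, 3681 of 10923 were higher in that fit, in place of 2329 of 11478. Apart from leaving out a library, no other setting moved a count of member calls by over 1.5 times. Without Liver 1 or Liver 2, comparisons of members passed that had not, and more of all genes passed in each comparison too. Without Liver 2 the new comparisons of members included rumen against liver for FOXP3, which was not tested in the main fit. Fewer of all genes passed in each comparison without a forebrain or rumen library. The changes in member counts are thus not shown to be particular to the family. Leaving out 1 library gave 1 to 8 members higher and 1 to 2 lower in rumen than in forebrain, 3 to 8 higher and 2 to 5 lower in rumen than in liver, and 2 to 8 higher and 4 to 6 lower in liver than in forebrain. Enriched members then numbered 3 to 7 and depleted ones 2 to 6. Of all listed partner and target genes, 31 to 62 were higher and 11 to 32 lower in rumen than in forebrain.

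Fits without a library have fewer residual degrees of freedom, and the lone library of a tissue is assumed to vary like the others. Whether the replicate numbers pair the tissues is not known. Deviations of same-numbered libraries correlated over genes at 0.08, -0.09 and 0.02, which cannot decide it with 2 libraries a tissue. The replicate block, with the number as a block, gave 4 members higher and 2 lower in rumen than in forebrain, 6 and 3 against liver, and 5 and 5 in liver against forebrain. The edgeR legacy dispersion was added after seeing the data. Without a library, 17 values of members that had not passed changed sign. With 2 libraries a tissue, a difference that missed the threshold is not shown to be absent.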
